A study of Mus musculus with 2 samples.

Results

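The 10 genes below belong to the canonical Wnt pathway and were followed across stromal cell classes of mouse bone marrow: the receptor genes Fzd1, Lrp5, Lrp6 and Lgr4, the transducer gene Ctnnb1, the transcription factor genes Tcf7l1, Tcf7l2, Lef1 and Tcf7, and the feedback gene Axin2. They were chosen by name and make up 10 of the 28006 features counted in each library. Single-cell RNA sequencing was performed on cells sorted from femurs, taken at postnatal day 28 from 2 mice, with 1 library per mouse and about 18000 cells loaded for each. Both mice carried the genotype Cxcl12(GFP/+); Cxcl12-iCreER; R26R(tdTomato/+), and both received tamoxifen at postnatal day 21. There was 1 group of animals, so every comparison is between classes of cells of the same 2 mice. Every cell therefore came from an animal with GFP in place of 1 Cxcl12 allele and with a creER that is a bacterial artificial chromosome transgene of 1 line. The labels name the sorted cells in 2 ways, as tdTomato+ in a protocol field and as GFP+ in the cell and design fields. The authors' paper describes the cells of this experiment as gated on a GFP-high fraction.

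Canonical Wnt signaling starts when a secreted Wnt protein binds a Frizzled receptor such as Fzd1 together with the co-receptor Lrp5 or Lrp6. β-catenin, the product of Ctnnb1, is then spared from destruction, enters the nucleus and joins the TCF/LEF factors, made by Tcf7, Lef1, Tcf7l1 and Tcf7l2, on target genes. Lgr4 binds R-spondins and so keeps Frizzled receptors at the cell surface, while Axin2 is both a widely used read-out of the pathway and part of the complex that destroys β-catenin. In bone the pathway is known for its role in osteoblast formation and bone mass.

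A barcode was taken as a cell when it held 1000 genes or more and no more than 15% of its UMIs were mitochondrial, where a UMI is a tag that lets each captured transcript be counted once. There were 2750 cells in Mouse #1 and 4582 in Mouse #2, with medians of 12966.5 and 12190.0 UMIs per cell, and 7 barcodes were shared by both libraries. Classes are clusters named from markers and carry the ending "-like". The members and all other Wnt genes described here were kept out of the clustering genes. The reticular-like class (Adipoq, Lpl, Esm1) held 1247 and 2417 cells, the preosteoblast-like class (Alpl, Mmp13, Ibsp, Sp7) 418 and 801, the osteoblast-like class (Bglap, Ifitm5, Dmp1) 14 and 61, and the periosteal-like class (Clec3b, Aspn, Ogn, Mfap5) 76 and 238. The osteoblast marker Mepe had 0 UMIs in the osteoblast-like class. The periosteal markers Cilp and Thbs4 had 0 UMIs in the periosteal-like class. The osteoblast-like name rests on the 6 of 8 listed markers that were raised. The periosteal-like name rests on 4 of 8, those given above. The osteoblast-like class of Mouse #1 is the thinnest, with 522442 UMIs in all, against 2729116 in Mouse #2 and 1378146 or more in each of the reticular-like, preosteoblast-like and periosteal-like sums.

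Levels below are UMIs of a gene per 1000000 UMIs of the class in 1 mouse, scaled by TMM (CPM), and are compared between classes for 1 gene, never between genes. TMM is a scaling that sets typical genes level between classes. It matters for the osteoblast-like cells, in which a few matrix genes take much of the total: their TMM factors were 0.709 and 0.685. Without it, the median gene of the comparison with preosteoblast-like cells lay at -0.93 on the log2 scale, and at -0.17 with it. Changes of osteoblast-like cells are therefore relative to that reference, and the text says where leaving out the scaling ends or turns a call. Tests are edgeR quasi-likelihood tests on sums per mouse, adjusted by Benjamini-Hochberg over all genes tested, with 2 mice in each class and 0.05 as the threshold. The classes were made from the same cells, so a p here measures a difference between classes against the spread between the 2 mice. The fit estimates that spread partly from all genes together, not from each gene alone. In sums over cells, fewer expressing cells and less RNA per cell cannot be told apart.

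On GRCm38 (mm10), the annotation GENCODE vM21 places Fzd1 at chr5:4753839-4758035, Lrp5 at chr19:3584828-3686564, Lrp6 at chr6:134446476-134566965 and Lgr4 at chr2:109917647-110014257. Ctnnb1 lies at chr9:120929216-120960507, Tcf7l1 at chr6:72626378-72789254, Tcf7l2 at chr19:55741820-55933654, Lef1 at chr3:131110471-131224356, Tcf7 at chr11:52252371-52283014 and Axin2 at chr11:108920349-108950783. Fzd1, Lrp5, Lrp6, Tcf7l1 and Tcf7 are on the minus strand.

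The promoters of 3 members are shown because they open the contrast described next: Axin2 and Lef1 were higher in preosteoblast-like than in reticular-like cells and Fzd1 was lower. Each run is the 250 bases before the first start site that RefSeq lists for the gene, on build GRCm38.p6 and on the strand of the gene. For Lef1 and Fzd1 that start lies outside the GENCODE bounds given above. The first bases after it were not found in GENCODE transcripts of these genes, while those of Axin2 were. Capitals mark CTTTG or its reverse complement CAAAG, the core of the TCF/LEF motif.
Axin2, chr11:108920099-108920348, plus strand: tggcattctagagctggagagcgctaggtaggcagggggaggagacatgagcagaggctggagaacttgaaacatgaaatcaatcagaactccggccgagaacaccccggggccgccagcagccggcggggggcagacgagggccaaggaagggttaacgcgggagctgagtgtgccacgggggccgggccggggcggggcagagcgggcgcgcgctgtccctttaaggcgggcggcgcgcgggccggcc
Lef1, chr3:131110047-131110296, plus strand: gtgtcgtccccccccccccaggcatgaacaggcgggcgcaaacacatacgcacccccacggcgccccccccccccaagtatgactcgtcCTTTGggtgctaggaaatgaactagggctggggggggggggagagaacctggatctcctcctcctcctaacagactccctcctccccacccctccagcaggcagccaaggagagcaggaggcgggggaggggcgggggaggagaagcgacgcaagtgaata
Fzd1, chr5:4758217-4758466, minus strand: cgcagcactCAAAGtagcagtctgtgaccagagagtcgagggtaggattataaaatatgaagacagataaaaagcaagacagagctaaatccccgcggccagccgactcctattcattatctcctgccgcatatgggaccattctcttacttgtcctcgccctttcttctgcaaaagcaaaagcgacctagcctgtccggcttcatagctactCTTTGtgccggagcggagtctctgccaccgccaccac
The window of Axin2 held no core, that of Lef1 held 1, starting 161 bases before the start site, and that of Fzd1 held 2, starting 241 and 37 bases before it. The core was present in 48.6% of all 32851 windows of this length. The longer motifs, CTTTG followed by AA, AT, TA or TT on either strand, were found in 14.8% of all windows and in none of these 3. Of the 10 members, 8 had at least 1 window in the table, and 2 of their 14 windows, a downstream start of Lef1 and one of Tcf7l2, held a longer motif.

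Between reticular-like and preosteoblast-like cells, members went both ways. Lef1, Tcf7, Axin2 and Ctnnb1 rose in preosteoblast-like cells, while Fzd1, Lrp6 and Tcf7l2 fell. So 7 of 10 members were called (4 higher, 3 lower), beside 25.1% of the 12155 genes tested (13% higher, 12.1% lower). The median log2 fold change was -0.01 over the members and 0.04 over all genes.

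Among the receptors, Fzd1 had 57.5 CPM in the reticular-like cells of Mouse #1 and 57.6 in those of Mouse #2, 31.4 and 26.4 in preosteoblast-like, 2.70 and 6.41 in osteoblast-like, and 82.9 and 61.8 in periosteal-like cells. Its ranges did not overlap between any pair of these classes, with periosteal-like highest and osteoblast-like lowest. Fzd1 was 2.00-fold lower in preosteoblast-like than in reticular-like cells (log2 fold change -1.0, SE 0.16, adjusted p = 0.00188, edgeR). It was a further 5.0-fold lower in osteoblast-like cells (-2.32, SE 0.33, adjusted p = 0.000655, edgeR), where only 1 and 12 UMIs were counted. Periosteal-like cells exceeded preosteoblast-like cells 2.46-fold (adjusted p = 0.000796, edgeR), and their difference from reticular-like cells was not called (0.30, SE 0.17, adjusted p = 0.25, edgeR).

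Lrp6, the co-receptor whose phosphorylated tail recruits Axin, had 85.0 and 83.6 CPM in reticular-like, 55.7 and 61.4 in preosteoblast-like, 59.4 and 57.2 in osteoblast-like, and 159 and 138 in periosteal-like cells. Periosteal-like cells were the highest in both mice, and preosteoblast-like and osteoblast-like cells overlapped. Without TMM scaling Lrp6 was lower in osteoblast-like than in preosteoblast-like cells and called (-0.78, adjusted p = 0.00137, edgeR), against -0.02 with it. Lrp6 was 1.75-fold higher in periosteal-like than in reticular-like cells (0.81, SE 0.12, adjusted p = 0.00132, edgeR) and 2.52-fold higher than in preosteoblast-like cells (adjusted p = 7.69e-05). The fall from reticular-like to preosteoblast-like cells was smaller (-0.52, SE 0.12, adjusted p = 0.01, edgeR). That call was lost without the sum of preosteoblast-like cells of Mouse #1 or either reticular-like sum, with a largest adjusted p of 0.0842.

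Lrp5, the partner co-receptor whose loss lowers bone mass, followed another order. It had 30.6 and 23.9 CPM in reticular-like, 36.8 and 29.2 in preosteoblast-like, 72.9 and 59.3 in osteoblast-like, and 53.7 and 56.1 in periosteal-like cells. Reticular-like and preosteoblast-like cells overlapped and their difference was not called (0.27, SE 0.17, adjusted p = 0.27, edgeR). Lrp5 was 2.03-fold higher in periosteal-like than in reticular-like cells (1.02, SE 0.18, adjusted p = 0.00344, edgeR), with an adjusted p of 0.0505 without the periosteal-like sum of Mouse #2. In osteoblast-like cells it was 1.93-fold higher than in preosteoblast-like cells (0.95, SE 0.21, adjusted p = 0.00659, edgeR). Without TMM scaling that difference was 0.19 and not called (adjusted p = 0.458), and the call was also lost without the osteoblast-like sum of Mouse #2.

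Lgr4, the R-spondin receptor, had 28.3 and 24.5 CPM in reticular-like, 24.1 and 19.4 in preosteoblast-like, 16.2 and 29.9 in osteoblast-like, and 30.6 and 27.3 in periosteal-like cells. Neighbours in the order of its levels overlapped throughout. None of the 6 pairs of classes was called for Lgr4 by edgeR, with adjusted p between 0.193 and 0.951, and its log2 difference between preosteoblast-like and reticular-like cells was -0.29 (SE 0.17).

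**Figure D1:**
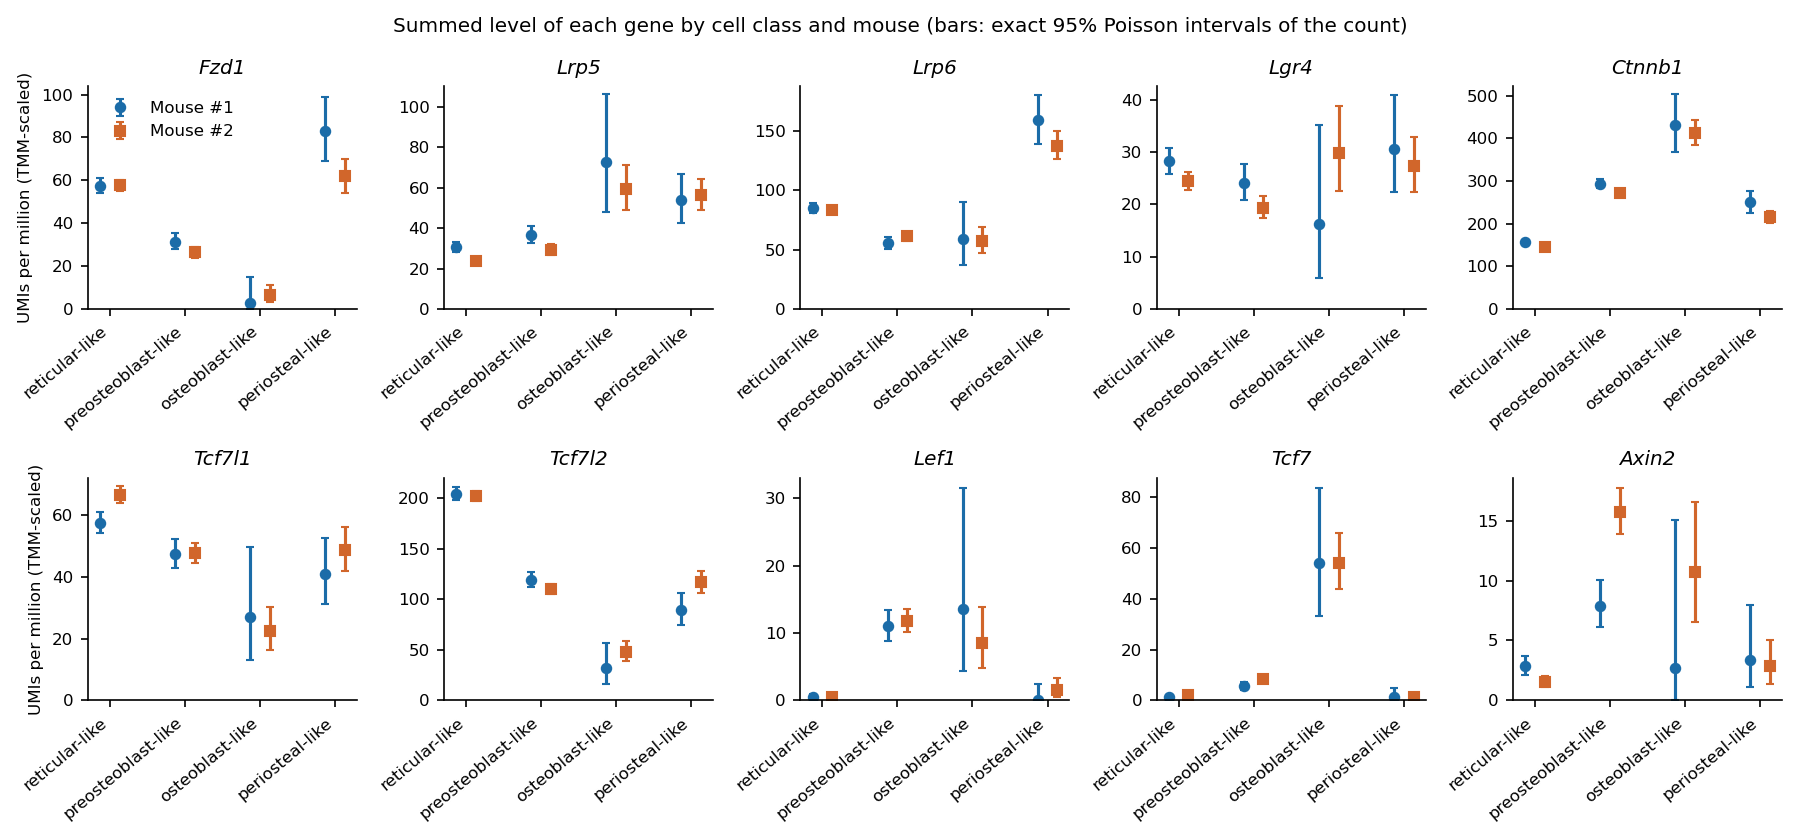
Levels of the 10 members in CPM, scaled by TMM, on linear axes that start at 0 and differ between panels. Circles are Mouse #1, squares are Mouse #2, and bars are exact 95% Poisson intervals that cover counting error only. Tcf7 stands near 54.0 in the osteoblast-like cells of both mice and at 8.35 or lower elsewhere, Fzd1 and Lrp6 are highest in periosteal-like cells, and the osteoblast-like intervals of Mouse #1, with 14 cells, are wide.

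Ctnnb1, which encodes β-catenin, had 156 and 145 CPM in reticular-like, 294 and 273 in preosteoblast-like, 432 and 413 in osteoblast-like, and 250 and 215 in periosteal-like cells. The 4 classes did not overlap, with osteoblast-like highest and reticular-like lowest. Ctnnb1 was 1.88-fold higher in preosteoblast-like than in reticular-like cells (0.91, SE 0.14, adjusted p = 0.0014, edgeR) and 1.54-fold higher in periosteal-like than in reticular-like cells (0.62, SE 0.14, adjusted p = 0.0124). The second of these calls was lost without either reticular-like sum or the periosteal-like sum of Mouse #1, with a largest adjusted p of 0.122. The further 1.49-fold difference of osteoblast-like over preosteoblast-like cells (0.57, SE 0.14, adjusted p = 0.0127, edgeR) turned to -0.18 (adjusted p = 0.28) without TMM scaling and lost its call without the Mouse #2 sum of either class. mRNA counts say nothing of β-catenin protein, which the pathway controls by degradation.

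Of the TCF/LEF genes, Tcf7l2 and Tcf7l1 were lower and Lef1 and Tcf7 higher in osteoblast-like than in reticular-like cells. Tcf7l2 had 204 and 202 CPM in reticular-like, 119 and 110 in preosteoblast-like, 32.4 and 48.1 in osteoblast-like, and 89.1 and 117 in periosteal-like cells. Only preosteoblast-like and periosteal-like cells overlapped. Tcf7l2 fell 1.77-fold from reticular-like to preosteoblast-like cells (-0.82, SE 0.15, adjusted p = 0.00407, edgeR) and a further 2.61-fold to osteoblast-like cells (-1.38, SE 0.20, adjusted p = 0.000643). It was also 1.94-fold lower in periosteal-like than in reticular-like cells (-0.96, SE 0.16, adjusted p = 0.00263, edgeR).

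Tcf7l1, often a repressor in the absence of β-catenin, had 57.5 and 66.5 CPM in reticular-like, 47.4 and 47.6 in preosteoblast-like, 27.0 and 22.5 in osteoblast-like, and 40.8 and 48.7 in periosteal-like cells. Reticular-like cells were the highest and osteoblast-like cells the lowest in both mice. Between reticular-like and preosteoblast-like cells the difference missed the threshold (-0.39, SE 0.13, adjusted p = 0.0539, edgeR) and passed it in 5 of 15 alternatives, among them the mouse as a block (adjusted p = 0.0295). The difference between periosteal-like and reticular-like cells (edgeR adjusted p = 0.0516) passed in 7 of 15, with the block at 0.0336. The fall from preosteoblast-like to osteoblast-like cells was called (-1.02, SE 0.19, adjusted p = 0.00322, edgeR), but not without the osteoblast-like sum of Mouse #2 (adjusted p = 0.169).

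Lef1, a factor that is itself a common target of the pathway, had 0.478 and 0.497 CPM in reticular-like cells (9 and 17 UMIs), and 11 and 11.8 in preosteoblast-like cells (92 and 198 UMIs). Osteoblast-like cells had 13.5 and 8.55 (5 and 16 UMIs), and periosteal-like cells 0 and 1.55 (0 and 6 UMIs). The levels formed a high pair of classes and a low pair that did not overlap. Lef1 was 22.8-fold higher in preosteoblast-like than in reticular-like cells (4.51, SE 0.36, adjusted p = 4.31e-05, edgeR) and 10.3-fold higher than in periosteal-like cells (adjusted p = 0.00148). It was 19.2-fold higher in osteoblast-like than in reticular-like cells (4.27, SE 0.53, adjusted p = 0.000166, edgeR), and its difference between osteoblast-like and preosteoblast-like cells was not called (-0.25, SE 0.41, adjusted p = 0.685).

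Lef1 is also a gene of early B cells, so free RNA and B-lineage markers were read beside it. Lymphoid-like cells held 109 and 93.8 CPM of Lef1 before TMM scaling, and barcodes with at most 100 UMIs, taken as free RNA, 9.13 and 16.4. The lymphoid marker list summed to 4.25 and 7.37 CPM in preosteoblast-like cells, 3.95 and 2.78 in reticular-like cells and 1012 and 967 in all hematopoietic cells. It summed to 4.35 and 27.8 in periosteal-like cells and to 0 and 0.733 in osteoblast-like cells. Cd79a alone stood at 0.851 and 3.30 in preosteoblast-like and at 1.21 and 0.861 in reticular-like cells. In periosteal-like cells Cd79a stood at 0.726 and 10.1. The part of such RNA in the Lef1 values was not tested.

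Tcf7, whose product TCF1 is best known from T cells, had 1.49 and 2.28 CPM in reticular-like, 5.50 and 8.35 in preosteoblast-like, 54.0 and 54.0 in osteoblast-like, and 1.36 and 1.29 in periosteal-like cells. The osteoblast-like values rest on 20 and 101 UMIs and lay above every other class in both mice. Tcf7 was 3.64-fold higher in preosteoblast-like than in reticular-like cells (1.86, SE 0.28, adjusted p = 0.00121, edgeR), and 7.62-fold higher in osteoblast-like than in preosteoblast-like cells (2.93, SE 0.29, adjusted p = 7.19e-05). Against reticular-like cells the osteoblast-like difference was 27.7-fold (4.79, SE 0.30, adjusted p = 3.02e-06, edgeR). A lincRNA feature, Gm26551, overlaps Tcf7 on the same strand, so reads that fit both features leave its count uncertain.

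Axin2, the feedback gene, had 2.87 and 1.55 CPM in reticular-like (54 and 53 UMIs), 7.89 and 15.7 in preosteoblast-like (66 and 263 UMIs), 2.70 and 10.7 in osteoblast-like (1 and 20 UMIs), and 3.40 and 2.83 in periosteal-like cells (5 and 11 UMIs). Preosteoblast-like cells exceeded reticular-like cells in both mice, and the mice differed from each other within the preosteoblast-like class. Axin2 was 5.62-fold higher in preosteoblast-like than in reticular-like cells (2.49, SE 0.40, adjusted p = 0.00194, edgeR). The osteoblast-like class spanned the preosteoblast-like and the low levels. Its 4.20-fold excess over reticular-like cells (2.07, SE 0.63, adjusted p = 0.0233, edgeR) came from Mouse #2, and without the osteoblast-like sum of that mouse it was 0.30 on the log2 scale (adjusted p = 0.932). Against periosteal-like cells, Axin2 was 3.99-fold higher in preosteoblast-like cells (adjusted p = 0.0318, edgeR), a call lost without either periosteal-like sum or the preosteoblast-like sum of Mouse #2, with a largest adjusted p of 0.243.

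**Figure D2:**
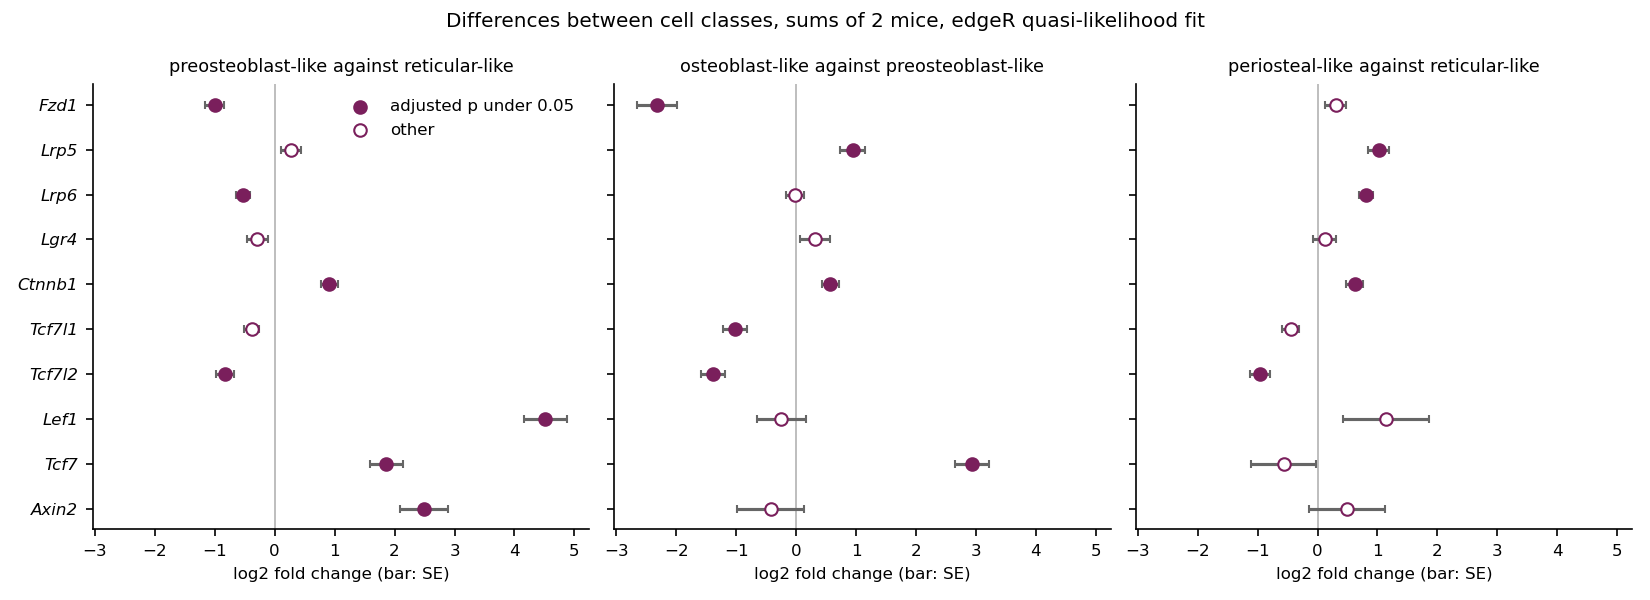
Log2 fold changes of the 10 members in 3 comparisons of classes, from sums of 2 mice, with bars for the SE and filled points for an edgeR adjusted p under 0.05. Lef1 lies farthest right in preosteoblast-like against reticular-like cells, at 4.51, and Tcf7 in osteoblast-like against preosteoblast-like cells, at 2.93.

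Counted by comparison, 6 of 10 members were called between osteoblast-like and preosteoblast-like cells (Tcf7, Lrp5 and Ctnnb1 higher, Fzd1, Tcf7l1 and Tcf7l2 lower), beside 34.4% of all genes (16.2% higher, 18.3% lower). The split of all calls was 1965 higher and 2220 lower with TMM scaling and 792 higher and 6894 lower without it. Leaving out the osteoblast-like sum of Mouse #2, which leaves the 14 cells of Mouse #1, kept 3 of the 6, and leaving out that of Mouse #1 kept 6. The median log2 fold change was -0.13 over the members and -0.17 over all genes. Between osteoblast-like and reticular-like cells 9 of 10 were called (5 higher, 4 lower), beside 44.5% of all genes (21.6% and 23%). Their median was 0.62, against -0.11 over all genes, and Lgr4 was the member not called. Without TMM scaling all calls went from 2624 higher and 2790 lower to 1238 and 6363, Axin2 (1.35, adjusted p = 0.0766, edgeR) and Lrp5 (0.50, adjusted p = 0.0649) were not called, and Lgr4 was (-0.69, adjusted p = 0.0294). The Lrp6 difference (-0.54, SE 0.15, adjusted p = 0.0136, edgeR) lost its call without either reticular-like sum or the osteoblast-like sum of Mouse #2, with a largest adjusted p of 0.192.

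In periosteal-like cells, 4 of 10 members were called against reticular-like cells (Lrp5, Lrp6 and Ctnnb1 higher, Tcf7l2 lower), beside 21.1% of all genes (12.2% higher, 8.98% lower). With the mouse as a block 5 were called, beside 23.3% of all genes. All calls were 1477 higher and 1092 lower, and 1344 and 1316 without TMM scaling. Against preosteoblast-like cells 6 were called, with the receptors Fzd1, Lrp5 and Lrp6 higher and Lef1, Tcf7 and Axin2 lower, beside 21% of all genes (12.3% higher, 8.64% lower). All calls were 1500 higher and 1050 lower, and 1281 and 1546 without TMM scaling. Without the periosteal-like sum of Mouse #2 the count of members was 3. Against osteoblast-like cells 7 were called, 4 higher and 3 lower, beside 38.6% of all genes (20.9% and 17.7%). There all calls were 2540 higher and 2146 lower, and 5371 and 915 without TMM scaling, where Ctnnb1 was not called (-0.23, adjusted p = 0.193, edgeR). The comparisons share the periosteal-like sums.

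At equal depth few cells showed the low members. With each cell thinned to 2000 UMIs, Lef1 was seen in 0.0804% and 0.207% of reticular-like cells and in 1.91% and 3.01% of preosteoblast-like cells. Unthinned, with medians of 12434.0 and 11609.0 UMIs per reticular-like cell and 15235.5 and 16281.0 per preosteoblast-like cell, the shares were 0.561% and 0.579%, and 14.8% and 15.7%. The 95% Wilson intervals of the thinned shares in the 2 classes did not overlap in either mouse (up to 0.454% and 0.484%, and from 0.973% and 2.03%). In erythroid-like cells, which should lack the gene, Lef1 had 0 UMIs in both mice. Not all other hematopoietic cells were free of it. Macrophage-like cells held 11 and 13 Lef1 UMIs, or 3.43 and 6.76 CPM before TMM scaling.

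Axin2 was seen in 0.563% and 0.622% of thinned reticular-like cells and in 0.957% and 4.01% of preosteoblast-like cells, against 0.277% and 0.141% of hematopoietic cells. Only in Mouse #2 did the intervals of the stromal classes separate (1.02% at most, against 2.85% at least). Tcf7 was seen in 1 of 14 and 6 of 61 thinned osteoblast-like cells, 7.14% and 9.84%, against 0.957% and 1.63% of preosteoblast-like and 0.277% and 0.563% of hematopoietic cells. Unthinned, 50% and 73.8% of osteoblast-like cells held a Tcf7 UMI, at medians of 32968.5 and 46370.0 UMIs per cell. Fzd1 was seen in 10.9% and 12.1% of thinned reticular-like, 4.31% and 5.01% of preosteoblast-like and 21.1% and 16.0% of periosteal-like cells, against 0.416% and 1.13% of hematopoietic cells. At 0 of 14 and 1 of 61 thinned osteoblast-like cells, the first count allows a share of up to 21.4%.

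**Figure D3:**
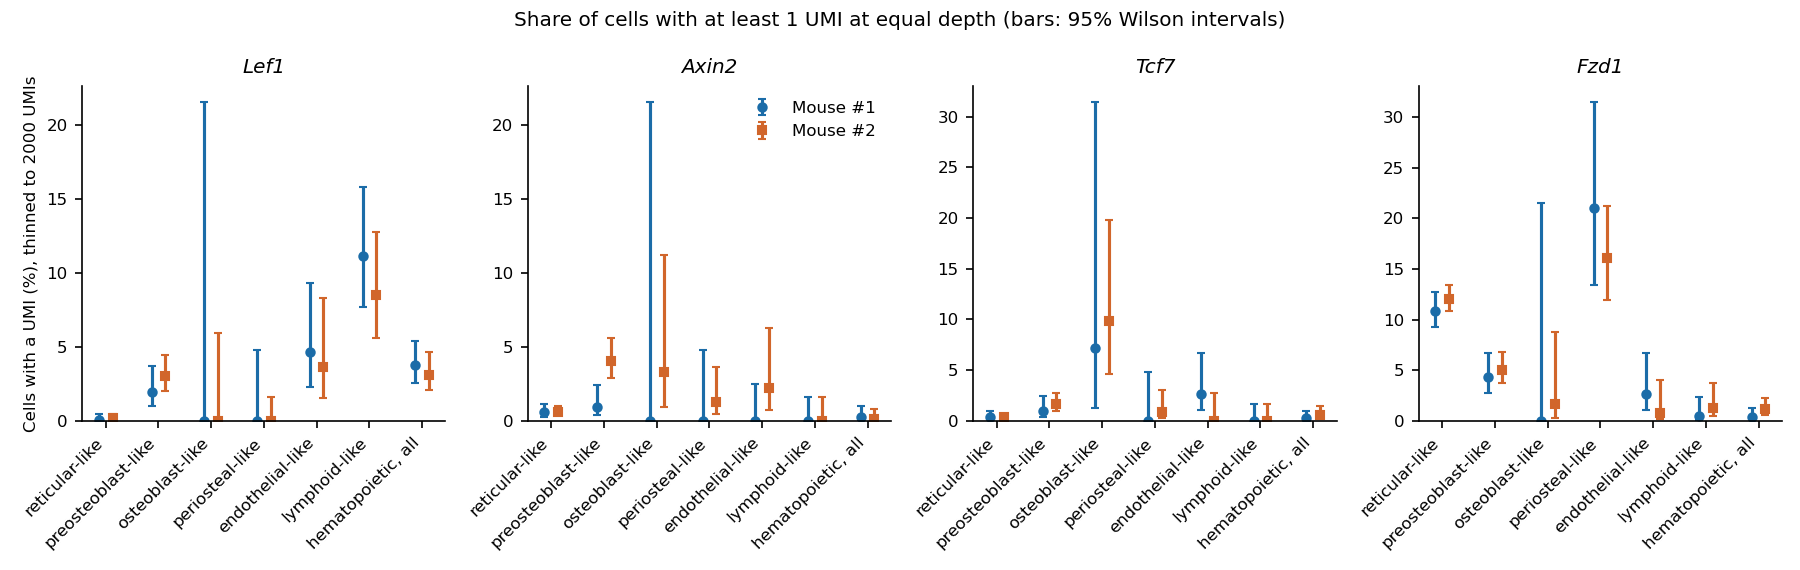
Percent of cells with at least 1 UMI of Lef1, Axin2, Tcf7 and Fzd1 after thinning each cell to 2000 UMIs, by class and mouse, with 95% Wilson intervals that cover counting error only. Lef1 is most frequent in lymphoid-like cells (11.1% and 8.51%), Tcf7 in osteoblast-like and Fzd1 in periosteal-like cells.

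Over all 10 members, a thinned cell showed a mean of 1.22 and 1.18 members in the reticular-like class, 1.19 and 1.20 in the preosteoblast-like, 0.643 and 0.934 in the osteoblast-like and 1.38 and 1.31 in the periosteal-like class. Hematopoietic cells showed 0.356 and 0.362. The osteoblast-like means were the lowest of the stromal classes in both mice at this depth. Thinning does not correct for the matrix genes that take much of the total in these cells. Unthinned, the osteoblast-like means were 4.79 and 5.46. The reticular-like means were then 4.04 and 3.85, the preosteoblast-like 4.27 and 4.37, and the periosteal-like 4.79 and 4.40. The order was thus not kept at full depth, where depth differs between classes.

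Within the reticular-like class, cells were split by tdTomato, the mark of creER activity, at the 99th percentile of hematopoietic cells. This gave 500 and 979 tdTomato-positive cells and 747 and 1438 tdTomato-negative cells. Lef1 fell under the filter on low counts, with 1 and 5 UMIs in positive and 8 and 12 in negative cells. None of the other 9 members was called, beside 0% of 12189 genes, of which 450 had an unadjusted p under 0.05 in edgeR and 6 were called by DESeq2. With the mouse as a block 594 genes, 4.87%, were called (2.34% higher, 2.54% lower), and again no member.

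CPM of tdTomato-positive and tdTomato-negative cells were scaled in a fit of their own. Their TMM factors were 0.988 to 1.01, against 1.14 and 1.13 for the reticular-like sums, so they cannot be compared with the class levels above. Ctnnb1 had 184 and 168 CPM in tdTomato-positive and 173 and 162 in tdTomato-negative cells, a log2 difference of 0.07 (SE 0.09). Tcf7l2 had 224 and 205 in positive and 237 and 243 in negative cells, lower in positive cells of both mice. That difference of -0.16 (SE 0.08) had an edgeR adjusted p of 1.00, and 0.0962 with the block. Axin2, at 3.18 and 1.33 in positive and 3.32 and 2.03 in negative cells, differed by -0.30 (SE 0.50), smaller than its error.

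Among the other pathway genes, none was called without the block, and with it 6 of 9 tested response genes were lower in positive cells (median -0.53), as were 3 of 8 secreted modulators and 2 of 14 other receptors. Over all genes 2.54% were lower and 2.34% higher with the block, with a median of -0.007. With the block 1 secreted modulator was higher, 1 of 6 ligands went each way, and none of 12 cytoplasmic genes or 15 nuclear cofactors was called. Bambi had 29.4 and 24.5 CPM in positive and 44.6 and 34.3 in negative cells (-0.54, SE 0.09, adjusted p = 2.4e-06 with the block, edgeR, and 1.00 without it). Wif1 differed by -1.12 (SE 0.13, adjusted p = 3.28e-11 with the block, edgeR). With the block the spread was estimated mostly across all genes, so so small a p does not rest on the values of Wif1 in the mice alone. Bambi and Wif1 were named here after their values were seen.

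The other genes of the pathway were described from lists by role, of which 11 of 12 response genes, 10 of 15 secreted modulators, 13 of 17 other receptors, 5 of 19 ligands, 12 of 12 cytoplasmic genes and 15 of 16 nuclear cofactors passed the filter on low counts. The nuclear list names the same gene as both Aes and Tle5, so its 16 symbols are not 16 genes. Between preosteoblast-like and reticular-like cells the counts of these lists stand beside the same 25.1% of all genes called (13% higher, 12.1% lower), and a list's share near these is no result about that list. Of the 20 pathway genes named for this comparison 9 were called in every alternative: Wnt5a, Lrp4, Fzd4, Fzd7, Fgf18, Ccnd1, Tnfrsf19, Wif1 and Sfrp4. In that comparison 5 of 11 tested response genes rose and 1 fell, with a median of 0.89 against 0.04 over all genes. Ccnd1, a cyclin of the G1 phase, went from 2.60 and 2.25 CPM in reticular-like to 26.0 and 28.6 in preosteoblast-like cells (3.51, SE 0.31). Fgf18, a growth factor of the skeleton, rose by 3.59 (SE 0.54) and Tnfrsf19, a receptor of the TNF family, by 2.29 (SE 0.30). Myc, a transcription factor, fell by 0.95. The edgeR adjusted p of these 4 genes lay between 7.19e-05 and 0.00522.

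Secreted modulators went both ways. Wif1, which binds Wnt proteins and blocks them, went from 21.3 and 12 CPM in reticular-like to 586 and 514 in preosteoblast-like cells (5.06, SE 0.41), and Frzb, a secreted Frizzled-like inhibitor, rose by 2.14 (SE 0.52). Sfrp4, of the same family as Frzb, dropped from 770 and 852 CPM to 125 and 186 (-2.38, SE 0.27). The R-spondin gene Rspo2 fell by 1.09 and Dkk3 by 0.62, calls that were both lost when either reticular-like sum was left out. In all 2 of 10 tested secreted modulators rose and 4 fell (median -0.60). Wif1 was among the 10 genes with the largest fold in the preosteoblast-like cluster although the Wnt lists took no part in the clustering.

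Of the other receptors 2 of 13 rose and 3 fell (median -0.01). Lrp4, a receptor of sclerostin and agrin, rose by 2.32 (SE 0.21) and Ror2, a receptor of Wnt5a, by 1.31 (SE 0.29), while Fzd4 (-1.53, SE 0.14), Fzd7 (-1.28, SE 0.22) and Fzd8 (-0.74, SE 0.20) fell, as Fzd1 did. Among ligands, Wnt5a rose by 1.78 (SE 0.14), from 8.88 and 8.27 to 27.7 and 31.0 CPM, and was the 1 of 5 tested ligands that was called (median -0.02). Wnt4 had 104 and 130 CPM in reticular-like and 104 and 125 in preosteoblast-like cells, without a call. Of 12 cytoplasmic genes, only the kinase gene Csnk1a1 was called (-0.49, SE 0.13; list median -0.18), and of 15 nuclear cofactors 2 rose (Tle2, 0.51, and Ctnnbip1, 0.40) and 2 fell (Bcl9l, -0.62, and Tle1, -0.59), with a median of 0.09.

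**Figure D4:**
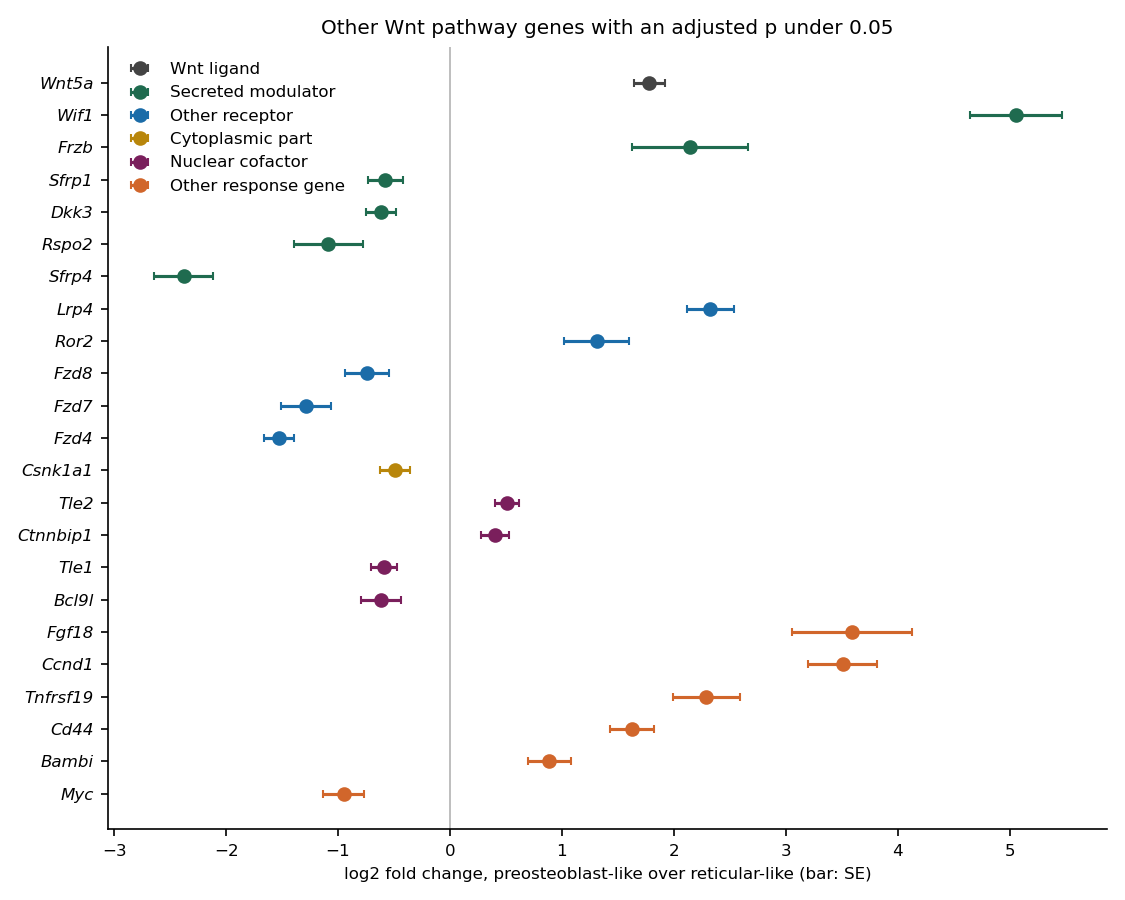
The 23 pathway genes outside the 10 members with an edgeR adjusted p under 0.05 in preosteoblast-like against reticular-like cells, coloured by role, with log2 fold change on the x axis and bars for the SE. Wif1 (5.06), Fgf18 (3.59) and Ccnd1 (3.51) lie farthest right and Sfrp4 (-2.38) farthest left.

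From preosteoblast-like to osteoblast-like cells, response genes went both ways, 3 of 11 higher and 3 lower (median -0.40, against -0.17 over all genes). Over all genes 34.4% were called (16.2% higher, 18.3% lower), and without TMM scaling that split was 792 higher and 6894 lower. Of the 24 pathway genes named here 8 were called in every alternative: Wnt4, Tle2, Bcl9l, Ctnnbip1, Bambi, Dkk1, Rspo3 and Sfrp4. Bambi, a decoy receptor of the TGF-β family, went from 47.1 and 64.6 to 459 and 592 CPM (3.25, SE 0.21). Twist1 (1.20) and Nkd2 (1.04) were also higher, and Tnfrsf19 (-1.26), Nkd1 (-1.21) and Myc (-0.83) lower. Without TMM scaling the calls of Twist1 and Nkd2 were lost, with no turn of sign. Of these 6, Bambi alone held its call under all alternatives tried.

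In osteoblast-like cells secreted modulators also went both ways. Dkk1, which blocks Lrp5 and Lrp6, had 3 and 51 UMIs there (8.10 and 27.3 CPM) and 1 and 0 in preosteoblast-like cells, a ratio of 606 with an exact 95% interval from 104 to 24356 for counting error. Most of these UMIs came from Mouse #2, and in Mouse #1 alone, with no test, the log2 difference was 5.72, against a fitted 8.68 (SE 0.92) over both mice in edgeR. Notum, an enzyme that inactivates Wnt proteins, had 3 and 17 UMIs in osteoblast-like and 3 and 3 in preosteoblast-like cells (5.12, SE 0.65), and Frzb rose by 2.47 (SE 0.54). The calls of Notum, Frzb and Rspo2 were lost without the osteoblast-like sum of Mouse #2. Rspo3, at 335 and 199 CPM in preosteoblast-like cells, was at 0 and 9.09 in osteoblast-like cells (-5.19, SE 0.50), Sfrp4 fell by 3.76 (SE 0.38), and Rspo2 by 3.27 (SE 0.71). In all 3 of 10 secreted modulators were higher and 6 lower (median -1.63).

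Of the ligands Wnt4 rose from 104 and 125 to 340 and 419 CPM (1.74, SE 0.23), Wnt5a fell by 1.03 (SE 0.22), and Wnt11, with 179 and 154 UMIs in preosteoblast-like cells, had 0 UMIs in osteoblast-like cells, which is at least 9.90-fold lower at a floor of 3 UMIs over the group (median of the 5 tested ligands, -0.89). Of 13 other receptors 2 were higher (Fzd9, 2.18, and Ryk, 0.51) and 5 lower, with a median of -0.90, or -0.79 with Fzd10, at 0 UMIs in osteoblast-like cells, set to its bound. Fzd2 fell by 2.22 (SE 0.30) and Fzd4 by 1.96 (SE 0.35). Without the osteoblast-like sum of Mouse #2, Fzd2 (edgeR adjusted p = 0.0543), Fzd4 (-1.22, adjusted p = 0.416), Fzd9 (adjusted p = 0.303), Ror1 (adjusted p = 0.0538), Wnt11 (adjusted p = 0.265) and Wnt5a (adjusted p = 0.27) were not called. Ror1 had 1 UMI in osteoblast-like and 307 in preosteoblast-like cells, a ratio of 0.0365 with an exact 95% interval from 0.000922 to 0.205. Of 15 nuclear cofactors 5 fell, led by Tle2 (-2.84, SE 0.18), Bcl9l (-1.45) and Ctnnbip1 (-1.44), and Ctbp1 rose (0.39), with a median of -0.22, and none of 12 cytoplasmic genes was called (median -0.15). Without TMM scaling Ctbp1 turned to -0.37, which was called (edgeR adjusted p = 0.0239), and Ryk to -0.25. The rise of Ctbp1 was also not called without a filter on low counts (adjusted p = 0.205), at resolution 1.0 (adjusted p = 0.081) or without any 1 sum of the 2 classes (largest adjusted p = 0.351), and that of Ryk was lost without the filter and without 3 of those 4 sums.

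Marker and reporter values here are CPM before TMM scaling. The preosteoblast list summed to 14009 and 13741 CPM in periosteal-like cells, close to the 14355 and 15719 of preosteoblast-like cells. It summed to 2439 and 3533 in reticular-like and 125901 and 124499 in osteoblast-like cells. The list includes the collagen gene Col1a1, which was not raised in the preosteoblast-like cluster. The part of Col1a1 in these sums was not tested. Markers of other cell types moved with these classes. The mural list summed to 787 and 657 CPM in preosteoblast-like, 230 and 294 in reticular-like, 7.66 and 27.5 in osteoblast-like and 269 and 313 in periosteal-like cells, with no marker at 0 in the first 2 of these classes. The chondrocyte list summed to 501 and 1023 in osteoblast-like cells, where 3 of its 7 counted markers were at 0, and to 4.17 to 47.2 elsewhere. The part of such cells in the differences above was not tested. The GFP reporter stood at 55.5 and 210 CPM in osteoblast-like cells, below the 533 and 818 of hematopoietic cells. It stood at 12825 and 12526 in reticular-like, 5215 and 3162 in preosteoblast-like and 4767 and 3040 in periosteal-like cells. Cxcl12 had 47.9 and 134 CPM in osteoblast-like and 385 and 515 in hematopoietic cells. For tdTomato these were 84.2 and 64.9, and 46.6 and 73.7. Whether the osteoblast-like cells met the sorting gate was not tested.

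The genes whose levels ran closest to each member over the sums of 9 named classes in both mice (18 sums, which share libraries, among 8799 genes) were taken by Pearson's r of log2(CPM + 1), as a description. For Lef1 they were 1110037F02Rik (r = 0.926), Acp6 (0.895) and Cdv3 (0.888), and for Axin2 Acsl3 (0.913), Lrp4 (0.873) and Rgs3 (0.872). For Tcf7 they were Pcsk6 (0.920), Smpd3 (0.917), which is also an osteoblast marker used here, and Cgref1 (0.903). Fzd1 ran with Serping1 (0.975), Ghr and Mdk, Lrp5 with Sep15 (0.970), Plod1 and Nav1, Lrp6 with Zbtb20 (0.964), Slc39a1 and Atraid, and Lgr4 with Htra1 (0.963), Gpc4 and Slc39a14. Ctnnb1 ran with Rasal2 (0.970), Hmg20b and Git1, Tcf7l1 with Nfib (0.986), Zcchc14 and Fermt2, and Tcf7l2 with Ammecr1l (0.968), Bcl9l and Sh3bgrl.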

How the data were processed

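Cells sorted from the femurs of 2 mice were sequenced by the authors with 3' droplet chemistry, 1 library per mouse. The deposited files hold raw UMI counts for 28006 features and every barcode, made by the authors with Cell Ranger 3.0.0 against mm10 with reporter sequences added, and were not filtered for cells or pooled. The annotation release is not given in the sources used here. The libraries held 54940400 and 88790688 UMIs in all.

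From the counts, barcodes holding 1000 genes or more and no more than 15% of UMIs from mitochondrial genes were scaled to 10000 UMIs, and 2000 variable genes without the Wnt genes, 30 components, 15 neighbours and Leiden resolution 0.5 gave the clusters (scanpy 1.11.5, leidenalg 0.10.2). A cluster was named from at least 3 raised markers. Scrublet called 1 and 3 cells, so it was taken not to have worked and doublets were kept. UMIs were summed per mouse and class and tested with the edgeR 4.0.16 quasi-likelihood test (R 4.3.3, TMM, filterByExpr, Benjamini-Hochberg), and with DESeq2 1.42.0 as an alternative. The script was tested on simulated data. With 2 mice an exact permutation test could not reach 0.05, so only the fit across all genes was used. Intervals and floors of 3 counts cover counting error only.

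The 2 sums of each comparison come from the same animals. The deviations of the same mouse correlated at 0.314 between reticular-like and preosteoblast-like cells, at 0.554 between tdTomato-positive and tdTomato-negative cells, and between 0.00998 and 0.244 for the other pairs. The fit without the mouse as a block was the main one, and the block was an alternative. The members and gene lists were chosen with earlier results of these data known. All members were named, as were the 3 called genes of each pathway list with the largest change in each direction in both comparisons along the osteoblast lineage and the 3 genes most like each member. Other genes, such as Cd79a, and Bambi and Wif1 in the comparison by tdTomato, were named after their values were seen.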

Additional observations from a re-analysis of the deposited data

How the results depend on the processing

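Of 69 tested member values, 39 were called, 25 of them in every alternative tried, and all 39 kept their sign in each mouse alone, where no test was possible. The alternatives without TMM scaling, leaving out the sum of 1 mouse in 1 class, and joining the block to a cutoff of 3 tdTomato UMIs were chosen after seeing the data. A lone sum was assumed to vary like the other sums. The replicate block and other alternatives called Tcf7l1 in 2 comparisons, as given above. The block also called 594 genes rather than 0 between tdTomato-positive and tdTomato-negative cells, and changed no other member call. For that comparison 1 gene was called with 3 or more tdTomato UMIs against 0, 165 with the block added, 45 without a filter on low counts and 6 by DESeq2. Without TMM scaling 7686 genes were called between osteoblast-like and preosteoblast-like cells, against 4185. Leaving out 1 sum, members called ranged from 3 to 6 and genes called from 1623 to 4084 in that comparison, from 7 to 9 and 2632 to 5392 for osteoblast-like against reticular-like, from 6 to 7 and 2326 to 4523 for periosteal-like against osteoblast-like, from 3 to 6 and 1317 to 1682 for periosteal-like against preosteoblast-like, from 3 to 3 and 1232 to 1826 for periosteal-like against reticular-like, and from 6 to 7 and 1464 to 2190 for preosteoblast-like against reticular-like cells. Thinning to 4000 rather than 2000 UMIs, which leaves more UMIs per cell, raised the mean share of cells with Axin2 from 2.48% to 5.56% and with Lef1 from 2.46% to 4.60% in preosteoblast-like cells, and with Fzd1 from 11.5% to 21.1% in reticular-like cells.

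Signs of these values, which were not called except for Ctnnb1, Ryk and Ctbp1, turned as follows, and the cause was not tested. For osteoblast-like against preosteoblast-like cells without TMM scaling, Ctnnb1 was -0.18, Lgr4 -0.45, Ryk -0.25 and Ctbp1 -0.37. Lrp6, at -0.02, was 0.023 with 500 genes and 20% mitochondrial UMIs, 0.00092 by DESeq2, 0.0060 with its size factors and 0.067 with only the 2 classes in the fit. Leaving out 1 mouse or 1 sum, Lrp6 ranged from -0.096 to 0.12, Axin2 from -2.19 to 0.18, Lef1 from -0.44 to 0.43 and Lgr4 from -0.46 to 0.64. For osteoblast-like against reticular-like cells, Lgr4, at 0.03, was -0.013 with the looser cell filter, -0.017 by DESeq2, -0.041 without a filter on low counts and -0.69 without TMM scaling, and ranged from -0.74 to 0.30 leaving out 1 mouse or 1 sum. For periosteal-like against osteoblast-like cells, Lrp5 was 0.44 without TMM scaling, and leaving out 1 mouse or 1 sum Axin2 ranged from -1.89 to 0.18 and Lgr4 from -0.14 to 0.84. Against preosteoblast-like cells, Tcf7l1 was 0.0073 by DESeq2 and 0.0075 with its size factors and ranged from -0.24 to 0.056, and Tcf7l2 from -0.41 to 0.082. Against reticular-like cells, Lef1 ranged from -5.55, where 0 UMIs were left in periosteal-like cells, to 1.71. For tdTomato-positive against tdTomato-negative cells, Fzd1 was -0.0074 with 3 or more UMIs, -0.011 with the block added and -0.013 without TMM scaling. Lrp5 was 0.0097 by DESeq2, 0.0033 with its size factors, 0.0050 with the Wnt genes in the clustering and 0.0086 without the highest doublet scores. Tcf7l1 was 0.011 with 2000 genes and 10% mitochondrial UMIs, 0.012 with the Wnt genes in the clustering, 0.027 without the highest doublet scores and 0.0057 at resolution 1.0.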

Other observations

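Outside the stromal classes the members had levels of their own, given here in CPM without TMM scaling, as a description with no test. Ctnnb1 stood at 780 and 691 in endothelial-like cells, where it also serves cell junctions, with Tcf7l1 at 78.6 and 74.9, Lrp5 at 60.8 and 52.4, Lef1 at 12.6 and 9.42 and Fzd1 at 6.81 and 4.71. Lef1 in lymphoid-like cells was concentrated in 1 of 2 clusters, at 178 and 141 against 35.4 and 32.2. Tcf7 in macrophage-like cells differed between the mice, at 3.43 and 26.0.

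An unnamed cluster of 66 and 82 cells was led by Acta2 and cell cycle genes. It raised 7 of 8 preosteoblast markers but was left out of the preosteoblast-like class, because its leading genes included a marker of another class. This cluster held Ctnnb1 at 383 and 319, Lef1 at 16.8 and 12.7, Tcf7 at 6.83 and 14.4, Axin2 at 6.83 and 4.98 and Fzd1 at 46.6 and 31.5. Among the 4 reticular-like clusters, Tcf7l2 ranged from 207 to 275 in Mouse #1 and from 209 to 260 in Mouse #2, and Fzd1 from 52.2 to 76.7 and from 46.8 to 67.6. Another unnamed cluster, of 56 and 134 cells, raised reticular markers but was left out as shallow, with a median of 3027.5 UMIs per cell. It held Tcf7l2 at 500 and 450 (96 and 194 UMIs) and Fzd1 at 41.6 and 18.6 (8 UMIs in each mouse).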
